A study of Mus musculus with 6 samples.

Results

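The genes described here make the machinery by which nerve terminals and neuroendocrine cells store, release and recover synaptic vesicles. They are 40 genes taken from a fixed list of symbols, out of 55536 gene identifiers with counts: 8 encode vesicle membrane proteins, 3 synapsins, 4 SNARE proteins, 6 regulators of SNARE assembly and disassembly, 8 active zone and priming proteins, 2 calcium-binding effectors, 3 are synucleins or a vesicle chaperone, 2 encode vesicular glutamate transporters and 4 vesicle recycling proteins. Synaptotagmins and Rab GTPases were not on the list, and the rule that names the genes uses no measured value. The list was, however, chosen with earlier results of these data known. Their mRNA was measured in CAD, a catecholaminergic cell line of the mouse central nervous system that carries simian virus 40 as its transformant and derives from a male C57BL/6 x DBA/2 background. The cells of 3 libraries had been differentiated for 5 days in 100 µM dexamethasone, a synthetic glucocorticoid, in medium with 1% serum. The cells of the other 3 libraries were undifferentiated and proliferating in medium with 8% serum, with no dexamethasone. The steroid and the lower serum thus differed together, and their parts in any difference cannot be told apart. CAD is a single transformed line kept below passage 10, so the libraries show that line and not a tissue.

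A synaptic vesicle fuses with the plasma membrane when its own SNARE protein, a synaptobrevin, zips together with syntaxin and SNAP-25 on the target membrane. Complexins clamp and assist the assembled complex, tomosyn competes with synaptobrevin, and the ATPase NSF with its SNAP adaptors takes the spent complex apart. Active zone proteins such as Munc13, RIM, ELKS and Bassoon hold and prime vesicles at the release site, synapsins tether the reserve vesicles, and dynamin, amphiphysin, endophilin and synaptojanin retrieve the membrane after fusion. Many of these proteins belong to families in which some members are neuronal and others serve secretion and membrane traffic in most cells.

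Total counts were 8751906, 8757992 and 6411105 reads in dexamethasone libraries 1, 2 and 3, against 7414047, 8168939 and 6476847 reads in undifferentiated libraries 1, 2 and 3. At these depths 3 reads in a library, the most that a count of 0 allows, are worth between 0.327 and 0.487 CPM, a gene's reads per 1000000 of the library size after TMM scaling. The 40 genes together took 0.332% ± 0.00665 of all reads in the dexamethasone group and 0.169% ± 0.000977 in the undifferentiated group (SD, n = 3 each). The labels speak of independent samples without naming separate cultures, and the p-values therefore hold for the scatter among these 6 libraries, part of which may be technical. Of 12 neuron markers, 8 had enough reads to be tested, and edgeR called 4 higher and 4 lower. Stmn2, Map2, Gap43 and Uchl1 were higher, by 2.75-fold in Stmn2 and 1.90-fold in Map2, and Elavl3, Elavl4, Nefh and Tubb3 were lower, by 1.56-fold in Elavl3 and 1.33-fold in Elavl4. The other 4, Rbfox3, Dcx, Nefl and Nefm, had at most 5 reads in either group. The summed level of the 12 neuron markers was 1665 to 1723 CPM in dexamethasone libraries and 1673 to 1685 CPM in undifferentiated libraries. Of 9 catecholaminergic markers, 5 were tested, with 3 called higher and 2 lower. Th was 2.09-fold, Slc18a1 2.52-fold and Gch1 2.80-fold higher, while Ddc was 7.28-fold lower and Dbh 13.2-fold lower, at 12.5 ± 0.354 CPM after dexamethasone and 165 ± 3.07 CPM in undifferentiated cells (SD, n = 3 each). The plasma membrane transporters Slc6a2 and Slc6a3 had 0 reads in all 6 libraries. Among the markers of other cell types, Mog, Mag, Sox10, Olig1 and Olig2 of oligodendrocytes, Ptprc, Itgam and Cx3cr1 of microglia and Gja1 of astrocytes had 0 reads in all 6 libraries. Col3a1 of fibroblasts and Cldn5 of endothelium were also at 0 throughout. For Itgam 68.67% of the exon bases lie under another gene of the same strand, where reads can be left unassigned, so its 0 tells little. Of the 7 astrocyte and 7 microglial and blood markers, 1 each was tested and not called. Of the 8 oligodendrocyte and Schwann cell markers, 2 were tested, with 1 called higher and 1 lower. In dexamethasone and undifferentiated libraries the astrocyte markers summed to 3.92 to 4.21 and 4.33 to 5.52 CPM. The sums were 2.53 to 4.36 and 2.97 to 4.22 CPM for oligodendrocyte and Schwann cell markers. Those for microglial and blood markers were 2.38 to 2.62 and 0.812 to 3.53 CPM. The 7 fibroblast markers, of which Dcn and Thy1 were called higher among 3 tested, summed to 21.6 to 23.7 CPM in dexamethasone libraries and 10.1 to 13.7 CPM in undifferentiated libraries. The 6 endothelial markers, of which Pecam1 and Vwf were both tested and both called higher, summed to 39.4 to 43.1 CPM in dexamethasone libraries and 20.8 to 24.5 CPM in undifferentiated libraries. Mitochondrial rRNA took 0.224% ± 0.026 of reads in the dexamethasone group and 0.0769% ± 0.0126 in the undifferentiated group (SD, n = 3 each). The part of these markers and shares in the differences below was not tested. In bulk RNA, more cells that express a gene and more of its RNA per cell cannot be told apart.

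Most of the synaptic genes with enough reads were higher after dexamethasone. Of the 40 genes, 32 had enough reads to be tested, and the quasi-likelihood test of edgeR, adjusted by Benjamini-Hochberg over all 12664 tested genes and read at 0.05, called 27 of them higher and 4 lower. The change in these cells was broad, and the same test called 78.9% of all tested genes, with 40.3% called higher and 38.6% called lower. The share of tested synaptic genes called higher was 84.4%, and the share called lower was 12.5%. The 4 that fell were Cplx1, Stx1a, Stxbp5 and Nsf, all of the fusion machinery, and Syn3 was not called. Called and at least 2-fold higher were 15 of the 32, against 17.8% of all tested genes, and 6 were called and at least 4-fold higher, against 6.45% of all tested genes. Cplx1 was the 1 synaptic gene called and at least 2-fold lower, against 12.2% of all tested genes. All 3 dexamethasone libraries lay above all 3 undifferentiated libraries for 27 of the 32 genes, against 41.0% of all tested genes, and below them for 4, against 38.9%. The median log2 fold change was 0.82 over the 32 genes and 0.02 over all tested genes. Synpr and Slc17a7 passed the filter on low counts only through the dexamethasone libraries, and the median over the other 30 was 0.69. Both are among the 27, the 15 and the 6 above, and could not have been called lower. The summed level of all 40 genes was 3119 to 3241 CPM in dexamethasone libraries and 1763 to 1766 CPM in undifferentiated libraries, with no overlap.

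**Figure D1:**
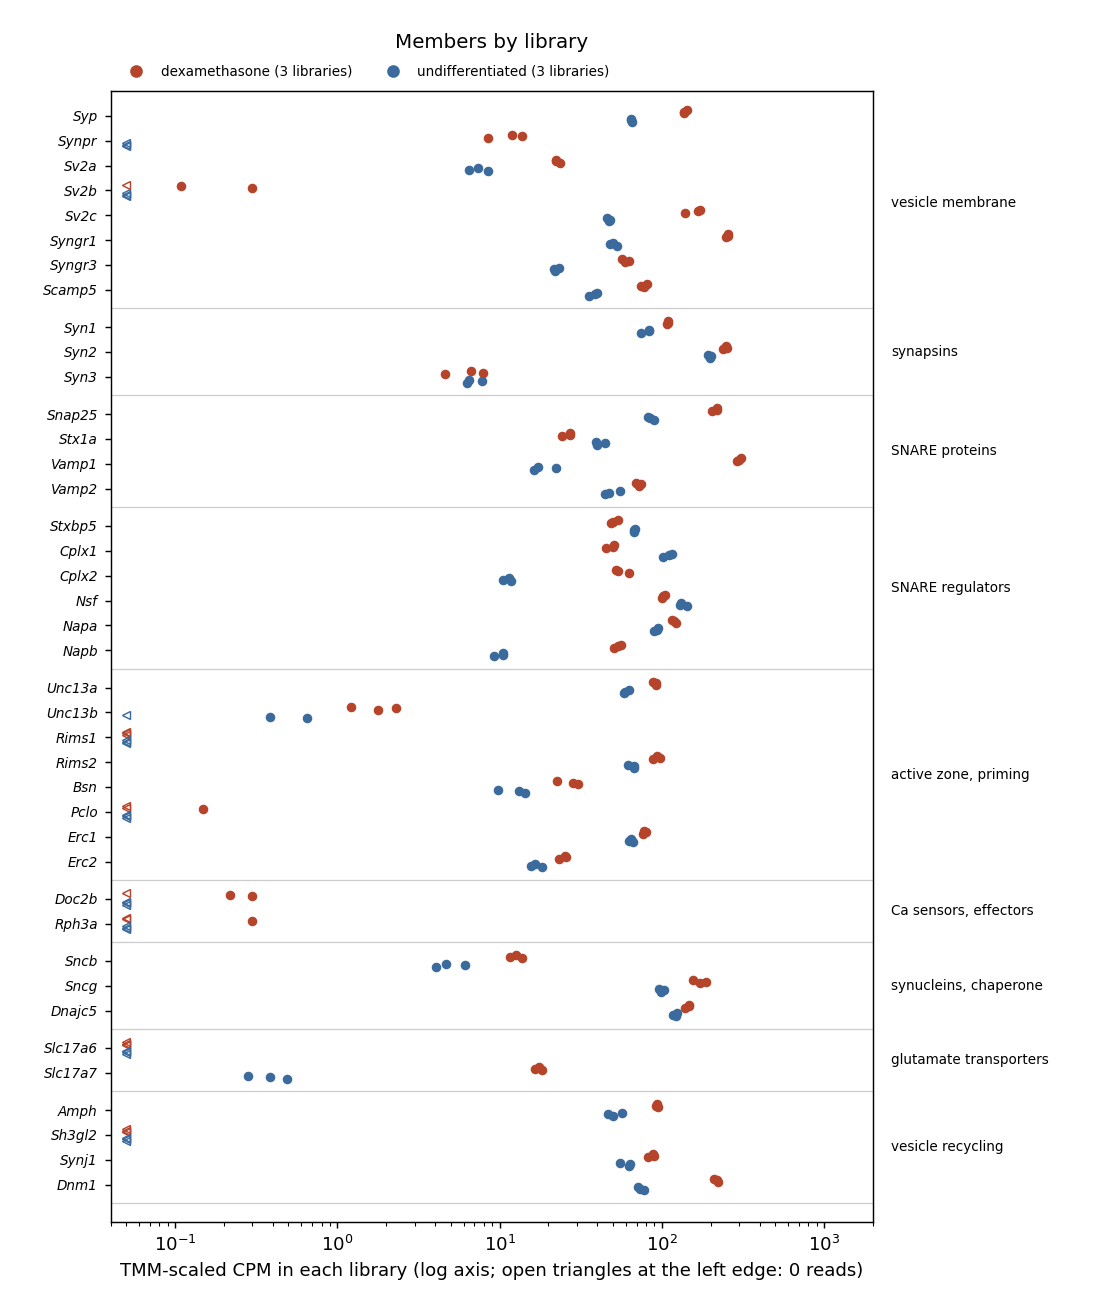
Level of each of the 40 genes in each library, in CPM scaled by TMM factors on a log axis, with dexamethasone libraries in red and undifferentiated libraries in blue and genes grouped by role. Open triangles at the left edge mark libraries with 0 reads. The red points lie above the blue for 27 of the 32 tested genes, and Vamp1, Slc17a7 and Synpr show the widest gaps.

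**Figure D2:**
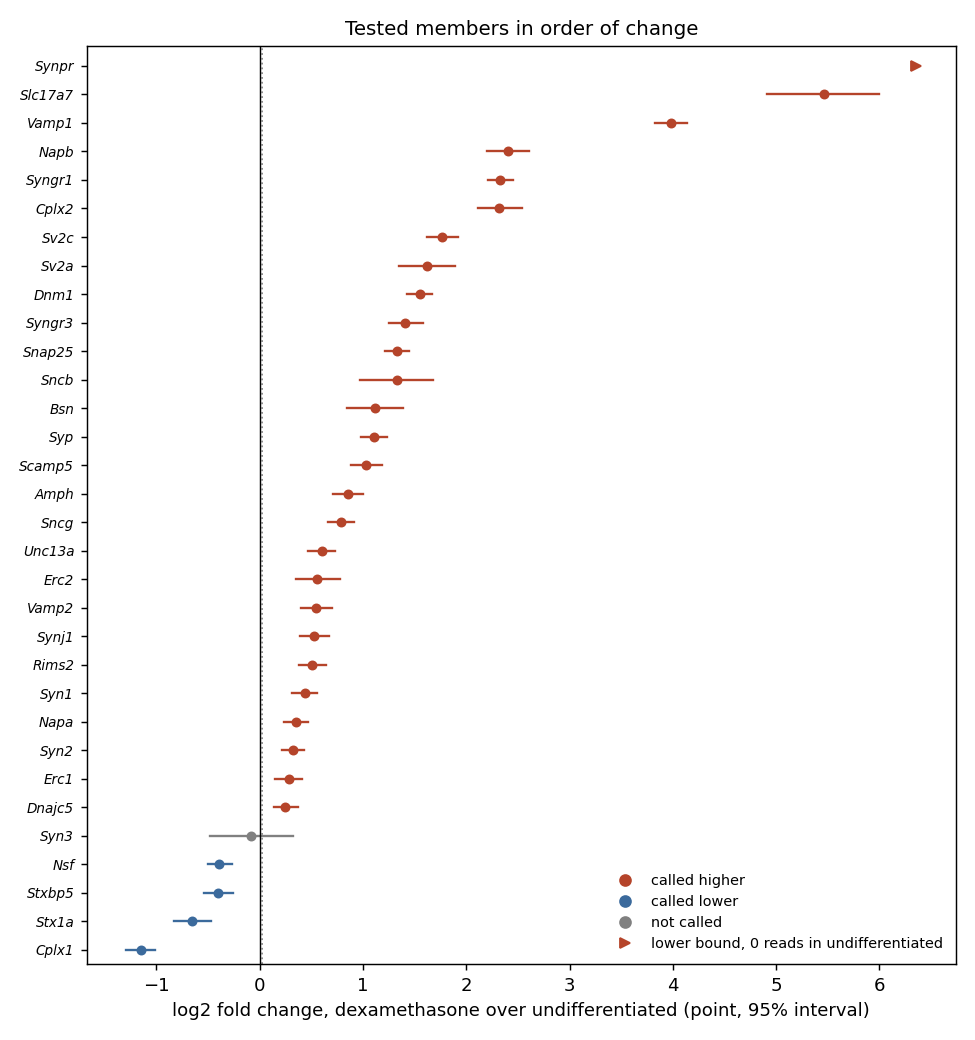
Log2 fold change of the 32 tested genes, dexamethasone over undifferentiated, as points with 95% intervals, in order of size. The dotted line is the median of all tested genes at 0.02. The arrow for Synpr, which had 0 reads in undifferentiated cells, stands at its lower bound, and the 4 genes called lower are at the foot of the plot with Syn3, whose interval spans 0.

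The promoters of the genes with the largest changes are shown because the contrast centres on a ligand of the glucocorticoid receptor, a transcription factor that binds DNA. The RefSeq table (build GRCm38.p6) held a promoter, 250 bases before and 50 after an annotated start, for 33 of the 40 genes, 6 of them with more than 1, which gave 42 promoters. The 42 include promoters of genes too low to test, and some of those genes have more than 1. That of Cplx2 begins at chr13:54302306, far before the gene model that was counted, which begins at chr13:54371349. The 250 bases before the start are printed 5′ to 3′ on the strand of the gene, with capitals for GC boxes (GGGCGG or its reverse complement) and CCAAT boxes (CCAAT or its reverse complement). Vamp1 (chr6:125215331-125215580, plus strand), Synpr (chr14:13284530-13284779, plus strand) and Slc17a7 (chr7:45163671-45163920, plus strand) are the genes that rose most, and Cplx1 (chr5:108550028-108550277, minus strand) is the gene that fell most.
Vamp1: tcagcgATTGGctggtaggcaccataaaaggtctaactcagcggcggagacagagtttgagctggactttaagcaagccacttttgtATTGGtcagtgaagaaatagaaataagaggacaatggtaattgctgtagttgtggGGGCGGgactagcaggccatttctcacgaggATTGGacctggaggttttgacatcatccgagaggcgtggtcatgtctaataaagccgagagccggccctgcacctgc
Synpr: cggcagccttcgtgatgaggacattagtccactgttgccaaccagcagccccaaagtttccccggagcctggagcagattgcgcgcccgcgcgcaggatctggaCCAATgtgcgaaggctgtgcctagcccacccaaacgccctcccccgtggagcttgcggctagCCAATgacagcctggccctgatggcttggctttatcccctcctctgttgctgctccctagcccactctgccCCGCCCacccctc
Slc17a7: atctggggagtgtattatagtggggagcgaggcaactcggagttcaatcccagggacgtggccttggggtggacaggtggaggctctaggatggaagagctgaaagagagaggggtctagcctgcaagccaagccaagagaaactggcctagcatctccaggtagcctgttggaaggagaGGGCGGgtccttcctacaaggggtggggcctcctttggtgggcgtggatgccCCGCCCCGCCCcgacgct
Cplx1: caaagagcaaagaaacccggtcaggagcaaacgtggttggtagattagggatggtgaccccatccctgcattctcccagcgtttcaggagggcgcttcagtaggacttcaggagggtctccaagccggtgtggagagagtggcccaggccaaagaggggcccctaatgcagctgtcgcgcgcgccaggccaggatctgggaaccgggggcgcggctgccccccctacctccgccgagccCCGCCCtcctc
GC boxes stand in all 4 of these stretches, and CCAAT boxes stand in those of Vamp1 and Synpr. Over the whole 300 bases, 64.3% of the 42 synaptic promoters held a GC box, against 35.7% of all 32851 promoters in the table. A CCAAT box was held by 23.8% of the synaptic promoters and 37.4% of all, and TATAAA or its reverse complement by 4.76% and 13.6%. The synaptic promoters with TATAAA were all of Sv2b, which was too low to test. The median GC content was 62.7% in the synaptic promoters and 52.7% in all, and the median number of CpG sites was 19 in the synaptic promoters and 7 in all.

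The glucocorticoid response element was searched as AGAACA and TGTTCT with any 3 letters between. It was found in 0 of the 42 synaptic promoters and in 3 of all 32851 promoters (0.00913%). So rare a match could hardly appear among 42 promoters, and its absence there tells nothing. The half-site of this element, AGAACA on either strand, was in 9.52% of the synaptic promoters, those of Rph3a, Sv2b and Syp, and in 19.0% of all promoters. Rph3a and Sv2b, with 2 and 3 reads in the dexamethasone group, were not tested, and each has more than 1 promoter in the table. The cAMP response element, TGACG followed directly by TCA, was in 7.14% of the synaptic promoters, those of Napa, Sh3gl2 and Syn1, and in 1.79% of all. Of these genes, Sh3gl2 had 0 reads in every library. The E-box CACGTG was in 9.52% of the synaptic promoters and 7.15% of all. A core of the RE1 element, which the neuronal repressor REST binds, was searched on both strands as AGCACC and GGACAG with any 2 letters between. It was in 1 of the 42 synaptic promoters (2.38%) and in 17 of all 32851 (0.0517%), too few to compare. The gene was Scamp5, and the match with its surroundings (chr9:57468172-57468231, minus strand, match in capitals) reads as follows.
Scamp5: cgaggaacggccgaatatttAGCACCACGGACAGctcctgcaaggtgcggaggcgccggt
These matches describe letters in a window of 300 bases and say nothing of binding.

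Among the vesicle membrane proteins, all 7 tested genes were called and at least 2-fold higher, against 17.8% of all tested genes. The median log2 fold change of the 7 was 1.62. Synpr, 1 of the 7, passed the filter on low counts only through the dexamethasone libraries, so its call gives no separate support for a rise. Syp encodes synaptophysin, the most used marker of synaptic vesicles. It had 144, 137 and 137 CPM in dexamethasone libraries 1, 2 and 3, against 64.2, 64.4 and 65.6 CPM in undifferentiated libraries 1, 2 and 3. The groups lay well apart, and the rise was 2.15-fold, or 1.11 ± 0.059 in log2 (SE; edgeR adjusted p = 9.04e-16). Synpr encodes synaptoporin, a relative of synaptophysin. It had 11.9, 13.7 and 8.49 CPM in the dexamethasone libraries, from 290 reads in all, and 0 reads in each undifferentiated library. Measured against a floor of 3 reads over the undifferentiated group, it was at least 81.8-fold higher after dexamethasone (edgeR adjusted p = 1.51e-13).

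The SV2 proteins are vesicle glycoproteins that resemble sugar transporters. Sv2a had 22.3, 22.4 and 23.5 CPM in the dexamethasone libraries, against 7.35, 6.50 and 8.44 CPM in the undifferentiated libraries. Sv2c had 172, 167 and 139 CPM in the dexamethasone libraries, against 45.7, 48.1 and 47.2 CPM in the undifferentiated libraries. Both rose clear of the spread between libraries, Sv2a by 1.62 ± 0.131 in log2 and Sv2c by 1.77 ± 0.074 (SE; edgeR adjusted p = 8.52e-12 and 4.14e-18). Dexamethasone library 3 was the lowest of its group for Sv2c but still far above every undifferentiated library. The third of them, Sv2b, had 3 reads in the dexamethasone group and 0 in the undifferentiated group and was not tested.

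Synaptogyrins are vesicle proteins with a membrane topology like that of synaptophysin. Syngr1 had 255, 258 and 247 CPM in the dexamethasone libraries, against 50.03, 48.1 and 53.1 CPM in the undifferentiated libraries. Syngr3 had 57.1, 62.4 and 59.3 CPM in the dexamethasone libraries, against 23.3, 21.7 and 22.1 CPM in the undifferentiated libraries. The libraries of each group were close together for both genes. Syngr1 rose 5.04-fold, by a log2 fold change of 2.33 ± 0.059, and Syngr3 rose 2.67-fold, by 1.41 ± 0.082 (SE; edgeR adjusted p = 6.06e-23 and 6.50e-15). Scamp5, a secretory carrier membrane protein of the brain, had 81.4, 74.3 and 77.7 CPM in the dexamethasone libraries, against 39.7, 38.9 and 35.6 CPM in the undifferentiated libraries. It rose 2.04-fold with no overlap, or by 1.03 ± 0.072 in log2 (SE; edgeR adjusted p = 3.87e-13).

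The vesicular glutamate transporters fill vesicles with glutamate, and of the pair on the list Slc17a7 (VGLUT1) alone was detected. Slc17a7 had 17.4, 16.6 and 18.3 CPM in the dexamethasone libraries, against 0.283, 0.382 and 0.487 CPM in the undifferentiated libraries, which rest on 8 reads in all. Every undifferentiated library was near the level of 3 reads and every dexamethasone library far above it. The fitted log2 fold change was 5.46 ± 0.264 (SE; edgeR adjusted p = 1.17e-16). Slc17a7 passed the filter on low counts only through the dexamethasone libraries, so its call gives no separate support for a rise. Slc17a6 (VGLUT2) had 0 reads in all 6 libraries.

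The synapsins changed little beside the membrane proteins. Syn1 had 109, 109 and 108 CPM in the dexamethasone libraries, against 83.5, 83.0 and 74.0 CPM in the undifferentiated libraries. Syn2 had 249, 253 and 238 CPM in the dexamethasone libraries, against 193, 200.0 and 199 CPM in the undifferentiated libraries. Neither gene's groups overlapped, and the rises in log2 were 0.44 ± 0.061 for Syn1 and 0.32 ± 0.050 for Syn2 (SE; edgeR adjusted p = 2.69e-07 and 1.72e-06). Syn3 had 6.64, 7.96 and 4.62 CPM in the dexamethasone libraries, against 6.50, 7.78 and 6.33 CPM in the undifferentiated libraries. The groups overlapped for Syn3, with a change of -0.08 ± 0.196 in log2 (SE; edgeR adjusted p = 0.715) and a 95% interval of -0.48 to 0.32, which leaves room for changes of the size seen in Syn2.

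Synucleins are small proteins that bind vesicle membranes and chaperone SNARE assembly. Sncb had 12.6, 11.7 and 13.7 CPM in the dexamethasone libraries, against 4.66, 6.12 and 4.06 CPM in the undifferentiated libraries. Sncg had 156, 186 and 172 CPM in the dexamethasone libraries, against 95.7, 104 and 98.7 CPM in the undifferentiated libraries. Both were higher in every dexamethasone library, Sncb by 2.51-fold and Sncg by 1.72-fold (edgeR adjusted p = 1.00e-07 and 6.81e-12). Dnajc5 encodes the cysteine string protein, a chaperone on vesicles that keeps SNAP-25 folded. It had 147, 147 and 139 CPM in the dexamethasone libraries, against 125, 117 and 122 CPM in the undifferentiated libraries, a small rise with no overlap of 1.19-fold (edgeR adjusted p = 1.46e-04).

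The SNARE proteins of the neuronal complex moved in both directions. Vamp1 encodes synaptobrevin 1 on the vesicle (gene at chr6:125215551-125245964, GRCm38). It had 306, 299 and 289 CPM in the dexamethasone libraries, against 17.2, 22.3 and 16.4 CPM in the undifferentiated libraries. The 2 groups were an order of magnitude apart, with a 15.8-fold rise equal to 3.98 ± 0.077 in log2 (SE; edgeR adjusted p = 3.24e-25). Vamp2, the other vesicle synaptobrevin, had 69.7, 73.9 and 71.9 CPM in the dexamethasone libraries, against 55.1, 47.0 and 44.8 CPM in the undifferentiated libraries. Its rise was 1.46-fold, with all dexamethasone libraries above the rest (edgeR adjusted p = 1.68e-07).

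Snap25 encodes the SNARE of the plasma membrane that botulinum toxin A cleaves. It had 220, 219 and 204 CPM in the dexamethasone libraries, against 82.1, 84.0 and 89.9 CPM in the undifferentiated libraries. It rose 2.52-fold, by a log2 fold change of 1.33 ± 0.057 with no overlap (SE; edgeR adjusted p = 7.88e-18). Stx1a, syntaxin 1A, had 27.4, 27.1 and 24.1 CPM in the dexamethasone libraries, against 39.2, 44.7 and 39.6 CPM in the undifferentiated libraries. Every dexamethasone library was below every undifferentiated library, and the gene fell 1.57-fold, with -0.65 ± 0.088 in log2 (SE; edgeR adjusted p = 1.89e-07).

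The regulators of SNARE assembly and disassembly divided evenly, with 3 of 6 tested genes higher, 3 lower and a median log2 fold change of -0.02, near the 40.3% higher, 38.6% lower and median of 0.02 of all tested genes. Complexins bind the assembled SNARE bundle. Cplx1 had 51.0, 50.3 and 45.3 CPM in the dexamethasone libraries, against 115, 110.2 and 102 CPM in the undifferentiated libraries. Cplx2 had 51.9, 53.7 and 62.8 CPM in the dexamethasone libraries, against 11.5, 10.5 and 11.7 CPM in the undifferentiated libraries. The paralogs went opposite ways with no overlap in either gene: Cplx1 fell 2.22-fold, by a log2 fold change of -1.15 ± 0.068, and Cplx2 rose 5.00-fold, by 2.32 ± 0.104 (SE; edgeR adjusted p = 8.42e-15 and 2.04e-17).

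The machinery that takes SNARE complexes apart also moved unevenly. Nsf, the ATPase, had 104, 102 and 101 CPM in the dexamethasone libraries, against 131, 129 and 142 CPM in the undifferentiated libraries. Napa, the alpha-SNAP adaptor found in all cells, had 115, 118 and 123 CPM in the dexamethasone libraries, against 95.3, 93.4 and 89.9 CPM in the undifferentiated libraries. The groups did not overlap for either, with Nsf 1.31-fold lower and Napa 1.28-fold higher (edgeR adjusted p = 6.06e-07 and 3.26e-06). Napb, the beta-SNAP adaptor of the brain, had 55.7, 53.6 and 50.6 CPM in the dexamethasone libraries, against 10.5, 10.5 and 9.25 CPM in the undifferentiated libraries. It rose 5.29-fold, by a log2 fold change of 2.40 ± 0.099, with its libraries tight in both groups (SE; edgeR adjusted p = 3.37e-18). Stxbp5 encodes tomosyn, which holds syntaxin and SNAP-25 away from synaptobrevin. It had 54.0, 49.9 and 48.4 CPM in the dexamethasone libraries, against 68.1, 66.9 and 67.2 CPM in the undifferentiated libraries, a fall of 1.32-fold with no overlap (edgeR adjusted p = 5.71e-06).

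All 5 tested genes of the active zone were called higher, against 40.3% of all tested genes. The 5 rose by less than most membrane proteins, and their median log2 fold change was 0.56. Unc13a encodes Munc13-1, which opens syntaxin and primes vesicles. It had 88.8, 92.1 and 92.0 CPM in the dexamethasone libraries, against 62.3, 59.4 and 58.1 CPM in the undifferentiated libraries. The rise was 1.52-fold, with no overlap (edgeR adjusted p = 1.59e-09). Rims2 encodes a RIM scaffold that joins vesicles to calcium channels. It had 93.9, 98.0 and 87.9 CPM in the dexamethasone libraries, against 62.0, 67.4 and 67.4 CPM in the undifferentiated libraries, and every dexamethasone library was above (log2 fold change 0.51 ± 0.065 SE; edgeR adjusted p = 5.57e-08). Rims1 had 0 reads in all 6 libraries.

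Bsn encodes Bassoon, a giant scaffold of the active zone. It had 22.5, 28.5 and 30.4 CPM in the dexamethasone libraries, against 9.75, 13.3 and 14.3 CPM in the undifferentiated libraries. Its libraries scattered more than those of most genes here but did not overlap, and the rise was 2.17-fold (edgeR adjusted p = 1.76e-08). A stretch of 0.358% of its exon bases lies under another gene of the same strand. Erc1 and Erc2 encode the ELKS scaffolds, Erc1 in most cells and Erc2 in brain. Erc1 had 77.2, 80.3 and 76.5 CPM in the dexamethasone libraries, against 64.2, 62.8 and 66.6 CPM in the undifferentiated libraries. Erc2 had 25.3, 25.6 and 23.2 CPM in the dexamethasone libraries, against 16.5, 15.7 and 18.3 CPM in the undifferentiated libraries. Neither overlapped, and they rose 1.21-fold and 1.48-fold (edgeR adjusted p = 2.78e-04 and 2.27e-05).

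The remaining active zone and calcium effector genes were too low to test. Unc13b, a second Munc13, had 1.22, 2.29 and 1.79 CPM in the dexamethasone libraries, against 0, 0.382 and 0.649 CPM in the undifferentiated libraries, from 44 and 7 reads. The values did not overlap. Where genes with 1 CPM or more in 3 libraries were kept, it was tested and was higher, with a log2 fold change of 2.36 (edgeR adjusted p = 3.17e-04). Unc13b passed that filter only through the dexamethasone libraries, so its call there gives no separate support for a rise. Pclo, which encodes the Bassoon relative Piccolo, had 1 read in the dexamethasone group and 0 in the undifferentiated group. Doc2b and Rph3a encode C2-domain proteins that bind vesicles and calcium. Doc2b had 4 reads and Rph3a 2 reads in the dexamethasone group, and both had 0 in the undifferentiated group. At these counts no difference was detectable.

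All 3 tested genes of vesicle retrieval on the list were called higher, against 40.3% of all tested genes. Dnm1 encodes a neuronal dynamin, a GTPase that cuts vesicles from the membrane. It had 210, 220 and 223 CPM in the dexamethasone libraries, against 71.8, 73.7 and 77.8 CPM in the undifferentiated libraries. The rise was 2.93-fold and well beyond the spread, equal to 1.55 ± 0.057 in log2 (SE; edgeR adjusted p = 2.28e-19). Amph, the BAR-domain partner that brings dynamin to the neck of the pit, had 92.8, 91.5 and 95.3 CPM in the dexamethasone libraries, against 57.1, 46.8 and 50.3 CPM in the undifferentiated libraries. Synj1, the lipid phosphatase that uncoats clathrin vesicles, had 88.8, 90.0 and 81.6 CPM in the dexamethasone libraries, against 55.4, 63.2 and 62.3 CPM in the undifferentiated libraries. Neither overlapped between groups, with rises of 1.81-fold for Amph and 1.44-fold for Synj1 (edgeR adjusted p = 1.08e-11 and 7.04e-08). Sh3gl2, endophilin A1, had 0 reads in all libraries, and its relative Sh3gl1 supplied 100% of the endophilin A reads. Sh3gl1 itself was called 1.28-fold lower after dexamethasone (edgeR adjusted p = 1.07e-04).

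Per length of exon, the order of the genes within a group changed as well. Levels are given here in TPM, reads per base of exon scaled to 1000000 over all genes. In dexamethasone cells Sncg was highest at 688 ± 68.3 TPM, followed by Syngr1 at 180.0 ± 3.96, Dnm1 at 142 ± 6.01, Syn2 at 120 ± 3.53 and Syn1 at 113 ± 1.38 TPM (SD, n = 3), each separated from the next. Snap25 and Napa came next and could not be separated from each other. In undifferentiated cells Sncg was also highest, at 353 ± 17.8 TPM, and Cplx1 was second at 151 ± 9.29 TPM (SD, n = 3). Cplx1 stood at rank 11 in dexamethasone cells, at 76.3 ± 4.43 TPM, and at rank 2 in undifferentiated cells. Vamp1 stood at rank 8 in dexamethasone cells, at 100.2 ± 1.97 TPM, and at rank 25 in undifferentiated cells, at 5.57 ± 1.02 TPM. Syn3 was the lowest tested gene in dexamethasone cells, at 1.78 ± 0.470 TPM.

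Within families, the dexamethasone libraries held a larger share of several brain-enriched paralogs. The share of a gene is its reads per kilobase of exon over the sum for its family, a value that no scaling between libraries can move. Among the synaptobrevins Vamp1 made up 38.9%, 38.4% and 39.7% in the dexamethasone libraries, against 2.75%, 3.70% and 2.58% in the undifferentiated libraries. Vamp3, the cellubrevin of most cells, made up 35.9% ± 1.72 in dexamethasone cells and 76.0% ± 2.48 in undifferentiated cells, each as mean and SD of 3 libraries. Vamp2 made up 23.7%, 25.3% and 26.3% in the dexamethasone libraries, against 23.5%, 20.8% and 18.8% in the undifferentiated libraries, a direction that turns round on plain reads, where it made up 16.0% ± 0.778 in dexamethasone cells and 24.3% ± 2.58 in undifferentiated cells (SD, n = 3 each). The make-up thus moved between Vamp1 and Vamp3, and Vamp3 itself was called 1.71-fold lower after dexamethasone (edgeR adjusted p = 1.50e-11).

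Similar shifts were seen beside other widely expressed paralogs. Snap25 made up 78.8% ± 1.49 of Snap25 and Snap23 in dexamethasone cells and 57.0% ± 1.07 in undifferentiated cells. Snap23 itself had 36.6 ± 3.65 CPM after dexamethasone and 40.9 ± 3.50 CPM in undifferentiated cells (SD, n = 3 each) and was not called (edgeR adjusted p = 0.116), although without dexamethasone library 2 or undifferentiated library 1 it was called lower (edgeR adjusted p = 0.029 and 0.0496). Syngr1 made up 46.8% ± 1.40 of the synaptogyrins in dexamethasone cells and 16.5% ± 1.02 in undifferentiated cells, while Syngr2, the form of non-neuronal tissues, made up 27.7% ± 1.27 and 66.5% ± 1.07. Syp made up 78.4% ± 1.27 of the physins in dexamethasone cells and 61.8% ± 1.21 in undifferentiated cells. Dnm1 made up 70.9% ± 0.646 of the dynamins in dexamethasone cells and 52.3% ± 0.891 in undifferentiated cells (SD, n = 3 each). Dnm3 made up 0.136% ± 0.0461 and 0.718% ± 0.101, and was called 2.47-fold lower (edgeR adjusted p = 7.88e-05). Dnm2 itself was called 1.33-fold higher (edgeR adjusted p = 1.93e-06), although its share fell.

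Other families shifted between neuronal paralogs or away from the synaptic member. Cplx2 made up 33.8% ± 3.78 of Cplx1 and Cplx2 in dexamethasone cells and 4.38% ± 0.427 in undifferentiated cells. Napb made up 16.6% ± 0.857 of the SNAP adaptors in dexamethasone cells and 4.46% ± 0.174 in undifferentiated cells. Stx1a went the other way and made up 18.6% ± 0.867 of the plasma membrane syntaxins in dexamethasone cells and 41.7% ± 3.35 in undifferentiated cells, while Stx4a of most cells made up 53.8% ± 0.802 and 36.5% ± 3.34. Synj1 made up 73.2% ± 0.555 of the synaptojanins in dexamethasone cells and 89.9% ± 1.82 in undifferentiated cells, with its paralog Synj2 at 26.8% ± 0.555 and 10.1% ± 1.82 (SD, n = 3 each). Sv2a and Sv2c kept shares that overlapped between the groups, with Sv2c at 76.8% ± 2.71 in dexamethasone cells and 75.2% ± 2.60 in undifferentiated cells. Shares were computed for 36 of the synaptic genes in 21 families. Of the 32 that varied between libraries, in 19 families, 16 were higher and 8 lower in every dexamethasone library than in every undifferentiated library. The shares of a family add up to the whole, so a rise in 1 forces a fall in another, as for Cplx2 and Cplx1. The counts are therefore not of separate results. By level, 41.0% of all tested genes lay above and 38.9% below in every dexamethasone library. With 3 libraries against 3 the two-sided exact permutation test cannot give a p under 0.1, which all 24 reached, or 0.133 after adjustment over the shares.

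**Figure D3:**
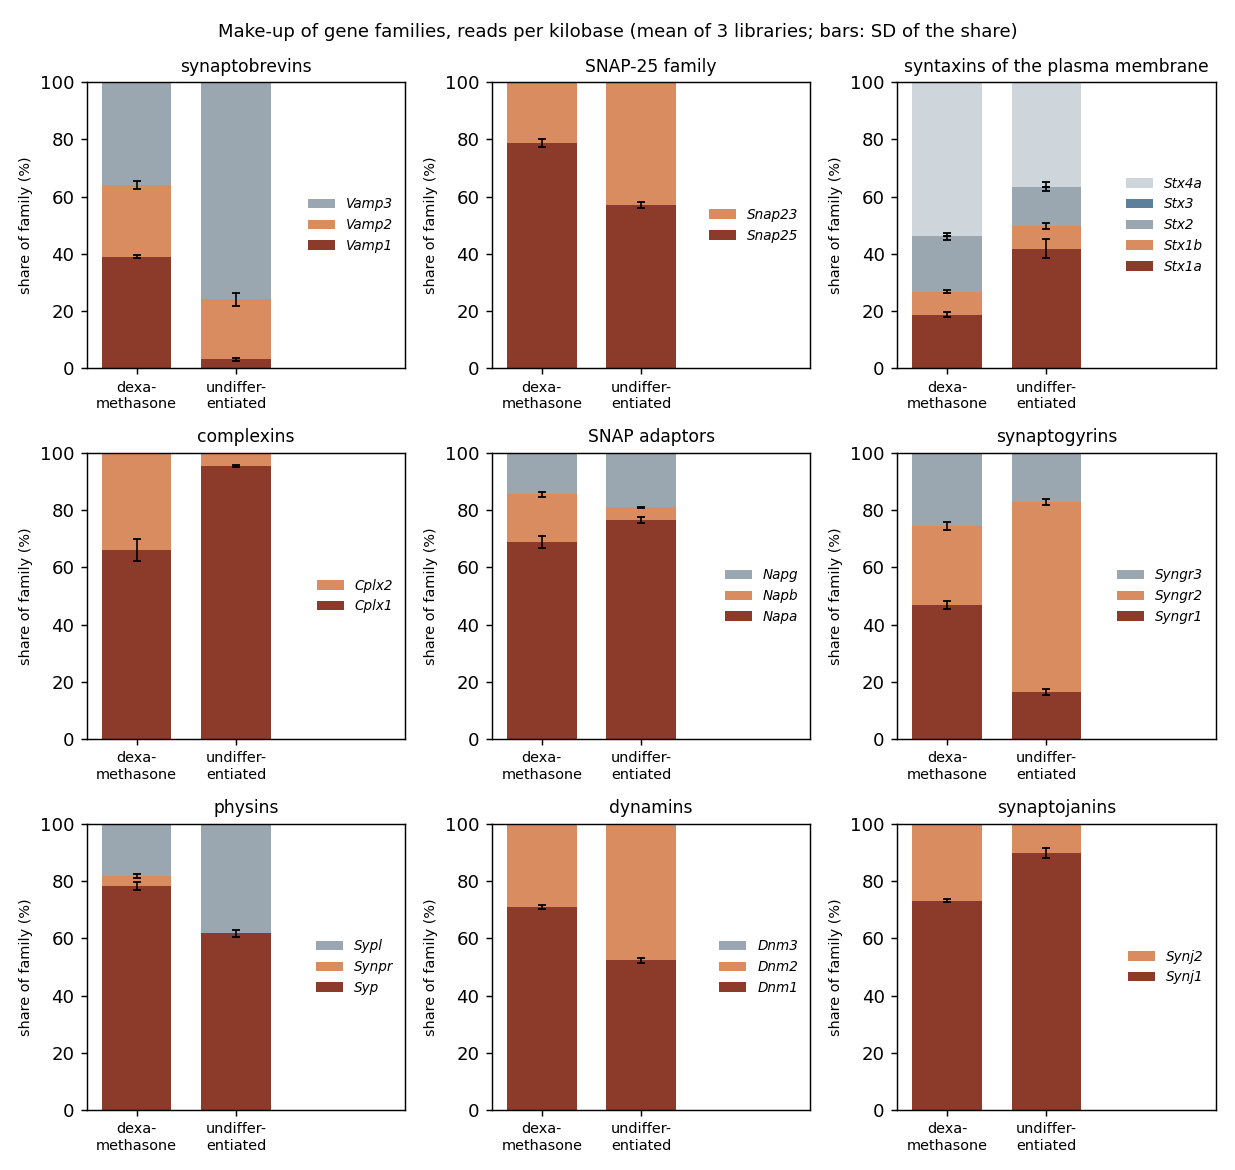
Make-up of 9 gene families in dexamethasone and undifferentiated cells, as the percentage of reads per kilobase of exon summed over the family; stacked bars are means of 3 libraries and black bars are the SD of the share below them. Vamp1 makes up 39.0% of the synaptobrevins after dexamethasone and 3.01% in undifferentiated cells, and Stx1a and Synj1 take smaller shares after dexamethasone.

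Other genes of the same pathways were set beside these from lists of known function. Of 36 other presynaptic genes, 21 were tested, with 11 called higher and 5 lower and a median log2 fold change of 0.23. Apba1, the adaptor Mint1 that binds the syntaxin partner Munc18, rose 4.68-fold, and Svop, a vesicle protein related to SV2, rose 5.98-fold (edgeR adjusted p = 1.59e-17 and 3.66e-15). Lin7c and Syngr2 fell, by 1.33-fold and 1.36-fold (edgeR adjusted p = 1.62e-07 and 1.83e-06). Of 30 genes of clathrin coats and vesicle recycling, 29 were tested, with 16 higher and 10 lower and a median of 0.17. Pacsin1, the neuronal syndapin that works with dynamin, rose 5.78-fold and Synj2 rose 4.74-fold, while Ap2s1 of the AP-2 adaptor fell by 0.67 and Itsn1, the scaffold intersectin, by 0.59 on the log2 scale (edgeR adjusted p = 3.12e-18, 1.04e-15, 8.59e-10 and 1.89e-09).

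Of 32 genes listed for constitutive traffic and fusion at other membranes, 29 were tested, with 19 higher and 5 lower and a median of 0.39. The list, named below as constitutive SNARE genes, also holds Stxbp2, Stxbp3 and Stxbp4, which are not SNAREs. Snap47 rose 2.42-fold and Stxbp2, which encodes Munc18-2 of non-neuronal exocytosis, rose 3.37-fold, while Bnip1, a SNARE of the endoplasmic reticulum, fell 1.61-fold (edgeR adjusted p = 1.99e-17, 4.28e-13 and 1.50e-07). Stx2 and Stx4a, plasma membrane syntaxins of most cells, rose 2.04-fold and 2.10-fold (edgeR adjusted p = 5.31e-11 and 1.82e-12). The share called higher was 84.4% among the 32 synaptic genes, 52.4% among other presynaptic genes, 55.2% among recycling genes and 65.5% among constitutive SNARE genes, against 40.3% of all tested genes. These shares are counts over chosen lists, and differences between the lists were not tested.

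**Figure D4:**
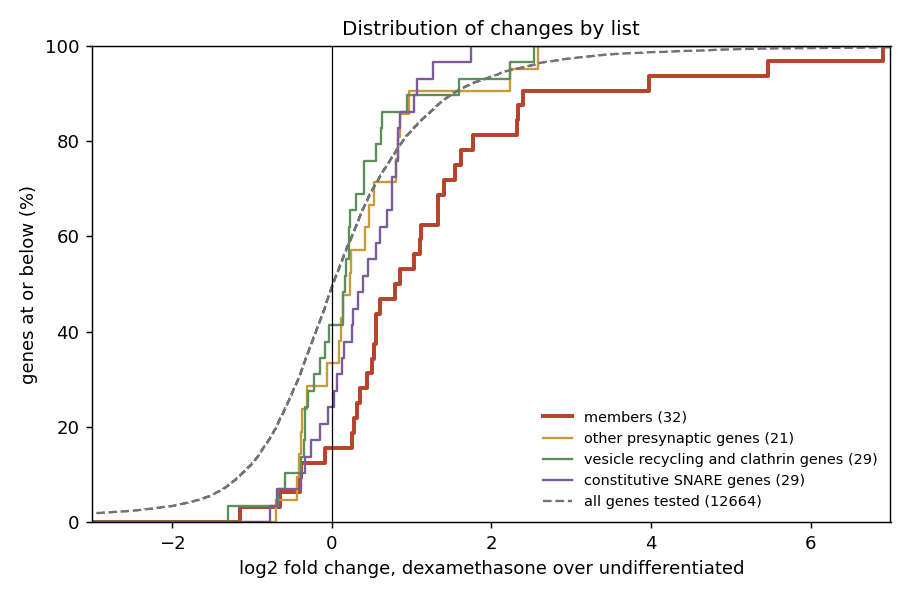
Cumulative share of genes at or below a log2 fold change, dexamethasone over undifferentiated, for the 32 tested synaptic genes, 3 lists of related genes and all 12664 tested genes. The synaptic genes have a median of 0.82, against 0.23, 0.17 and 0.39 for the other lists and 0.02 for all genes; Synpr, fitted beyond the axis, is drawn at its right edge.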

How the data were processed

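Sequencing counts of CAD cells were compared between 3 dexamethasone and 3 undifferentiated libraries, grouped by their titles. Per the labels' protocols, mRNA libraries were made from total RNA and sequenced in reads of 75 bases. By name, per the submitters' processing notes, the tools were Trim Galore 0.6.4, HISAT2 2.2.0, Subread 1.6.4, FastQC 0.11.9 and DESeq2, and the build was GRCm38.p6. Per the file headers, the authors made the deposited values with featureCounts as raw counts per gene over Ensembl exons, with a strand setting and no option for reads that align to several places, so reads shared by near-identical paralogs were left out. No normalization had been applied.

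All 55536 identifiers had a name and the same start and end in GENCODE M21. Genes were kept by edgeR's filterByExpr (minimum count 10, minimum total 15), scaled by TMM and tested in edgeR 4.0.16 (glmQLFit, then glmQLFTest) on the group alone, with p adjusted over 12664 genes by Benjamini-Hochberg. The common biological coefficient of variation was 4.41%. Within a group any pair of libraries scattered beyond counting error (chi-square over its degrees of freedom 1.683 to 3.363), so none was counted as a copy. Floors and bounds cover counting error only. Family shares were tested by exact permutation.

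The synaptic genes, the lists set beside them and the tests were chosen with earlier results of these data known. Every tested gene of the list averaged 5 CPM or more in at least 1 group, which was the rule for giving each library's value. From each other list, up to 2 called genes per direction, by smallest adjusted p among those averaging 1 CPM or more, were named, with the relatives within a family where it is described. Stx2 and Stx4a, outside that rule but for their family, and the directions of cell type markers were also given. Alternatives were RLE and upper quartile scaling, library totals alone, no filter, 1 CPM or more in 3 libraries, DESeq2 1.42.0, voom of limma 3.58.1, a replicate block, a test against a fold of 2, each library left out, and family shares from plain reads.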

Additional observations from a re-analysis of the deposited data

How the results depend on the processing

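The 14 alternatives other than the test against a fold of 2 kept all 31 called synaptic genes in their direction and left Syn3 uncalled. They gave 27 to 28 genes higher and 4 lower, the range when 1 library was left out being the same. Tested against a fold of 2, edgeR called 12 of the 32 tested synaptic genes higher and 1 lower. Of all 12664 tested genes it called 1684 higher and 1130 lower. On the other lists that test gave 2 higher and 0 lower of 21 tested presynaptic genes, 3 and 0 of 29 recycling genes, and 2 and 0 of 29 constitutive SNARE genes. Differences between these counts and that over all genes were not tested. At an unadjusted p under 0.05 it gave 0, 1 and 0 lower genes on those lists, and DESeq2 called 5, 9 and 5 of them lower at any fold. The median log2 fold change of the synaptic genes, 0.82, was 0.92 with upper quartile scaling and 0.95 with library totals, where the median of all genes was 0.12 and 0.14, and 1.13 with no filter, which admits genes with few reads. It lay between 0.80 and 0.94 when 1 library was left out. Leaving out 1 library gave 5022 to 5103 of all genes higher and 4674 to 4845 lower. Same-numbered libraries deviated from their group means with correlations of -0.0947, 0.0357 and -0.071, so the numbers were not taken to pair them, and with the replicate block 27 synaptic genes were higher and 4 lower, with no call changed. Family shares from plain reads put 15 higher and 9 lower, the gene that turned round being Vamp2. Of the 40 genes, 8 had too few reads to be tested, 3 of them with 0 reads in every library.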
